A study of Mus musculus with 15 samples.

Results

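The genes described here are 39 mouse genes for the enzymes (with 1 enzyme's chaperone counted among them) that build and cap the sugar chains of mucins: 10 polypeptide GalNAc transferases that start the chains, 14 genes of core synthesis and extension, 5 fucosyltransferases, 7 sialyltransferases and 3 sulfotransferases. They were taken from a list of gene symbols, with Fut2 among the fucosyltransferases. That list was drawn up with earlier results of these data known. Shares of the set given beside those of all features are therefore descriptive. All 39 had a probe on the array, and 36 were bright enough to be tested among 23939 features in all. Gcnt4 and Chst5 were not well above background on any of the 15 arrays, and Fut10 was on 6 of them (3 control, 2 N1N2 and 1 N1N2 plus Lrp6), so these 3 were not tested.

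Mucin-type O-glycosylation takes place in the Golgi, where GALNT enzymes attach N-acetylgalactosamine to serine or threonine. Other enzymes add galactose and N-acetylglucosamine to form and lengthen the cores, and fucose, sialic acid or sulfate close the chain ends. In the gut such chains make up much of the mass of the mucus that goblet cells secrete. FUT2 adds the terminal fucose of H antigens on intestinal epithelium, to which many gut bacteria adhere or which they feed on.

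RNA came from small-intestinal crypts, the epithelial pits that hold stem, progenitor and Paneth cells, of mice aged 6 to 8 weeks, taken 24 h after treatment. The control mice had received a control IgG antibody per the sample labels (the series design calls them untreated). The N1N2 mice had received 1 dose of antibodies that block Notch1 and Notch2, receptors that hold crypt progenitors back from secretory fates. The N1N2 plus Lrp6 mice had received these together with an antibody to the Wnt co-receptor Lrp6, at 30 mg/kg. Each of the 3 groups had 5 arrays, which the series calls biological replicates; the sources used here do not say whether animals were pooled, nor which strain or sex they were. No group had the Lrp6 antibody alone. The Notch antibodies were stated as 1 mg/mL, a concentration. Crypt RNA was labelled red and a universal mouse reference RNA green, so each value is a log2 ratio of crypt over reference, and a ratio of 1 probe is not set against that of another. These are bulk crypts, in which fewer cells of a type and less RNA per cell cannot be told apart.

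All 7 tested markers of crypt epithelium were well above background in each group. Between 57.2% and 79.8% of spots were well above background, with group means (± SD, 5 arrays each) of 75.8% ± 4.22 for control, 73.9% ± 3.05 for N1N2 and 64.8% ± 6.02 for N1N2 plus Lrp6. N1N2 plus Lrp6 replicate 1 was the lowest of all. The arrays lay on 6 slides, and only 1 slide held 2 groups (2 control and 2 N1N2 arrays), so for both comparisons with the N1N2 plus Lrp6 group slide and group cannot be told apart. Of the 36 enzymes, 34 were well above background on every array. Fut2 was on 4 of 5 arrays and B4galnt3 on 2 of 5 in the N1N2 plus Lrp6 group.

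The start regions of 4 of the genes that changed in both comparisons below are printed so that their sequence can be read beside the values. Each line holds the 250 bases before the annotated start, 5′ to 3′ along the gene, from RefSeq on build GRCm38.p6: Fut1 (chr7:45617356-45617605, plus strand), Galnt10 (chr11:57645192-57645441, plus strand), St6galnac4 (chr2:32586828-32587077, plus strand) and Chst4 (chr8:110039335-110039584, minus strand). Capitals mark CAGCTG and CAGATG, forms of the E-box that basic helix-loop-helix factors such as Atoh1 bind, and CCACG, which ends the endoplasmic reticulum stress element; both strands were searched.
Fut1: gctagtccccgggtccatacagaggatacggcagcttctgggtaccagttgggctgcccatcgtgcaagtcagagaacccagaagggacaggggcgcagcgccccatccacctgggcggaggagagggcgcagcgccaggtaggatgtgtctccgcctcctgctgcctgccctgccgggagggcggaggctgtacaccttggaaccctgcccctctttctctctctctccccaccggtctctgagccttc
Galnt10: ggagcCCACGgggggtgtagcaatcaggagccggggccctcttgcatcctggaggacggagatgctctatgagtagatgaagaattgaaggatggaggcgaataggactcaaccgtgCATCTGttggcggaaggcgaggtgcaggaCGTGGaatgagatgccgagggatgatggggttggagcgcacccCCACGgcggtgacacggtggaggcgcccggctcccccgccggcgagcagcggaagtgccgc
St6galnac4: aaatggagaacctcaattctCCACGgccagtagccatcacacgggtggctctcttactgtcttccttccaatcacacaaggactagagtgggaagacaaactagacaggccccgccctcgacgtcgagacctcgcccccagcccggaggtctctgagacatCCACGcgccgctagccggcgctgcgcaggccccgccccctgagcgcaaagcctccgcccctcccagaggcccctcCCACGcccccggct
Chst4: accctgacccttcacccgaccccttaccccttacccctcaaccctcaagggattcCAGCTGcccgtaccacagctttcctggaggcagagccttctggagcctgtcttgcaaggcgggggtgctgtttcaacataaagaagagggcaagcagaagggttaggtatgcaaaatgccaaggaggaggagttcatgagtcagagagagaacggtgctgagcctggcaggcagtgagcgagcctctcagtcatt
The Fut1 window held none of the 3 motifs, the Galnt10 window held CAGATG once and CCACG 3 times, the St6galnac4 window held CCACG 3 times and the Chst4 window held CAGCTG once. Of the 11 genes that changed in both comparisons, 7 had a window. The windows of Galnt7 and St6galnac6, not printed, held none of the motifs, and that of Fut4, also not printed, held CCACG once. Windows were found for 27 of the 39 genes, 36 windows in all, and Fut2, Galnt12, Gcnt3 and St3gal1 had none in the table. The search for the set left out a single chromosome, which the count over the whole table kept. CAGCTG occurred in 13.9% of the 36 windows and in 13% of 32851 windows of the table, CAGATG in 5.56% and 14.4%, and CCACG in 38.9% and 28.3%. The windows of the set held a median of 59.4% G or C, against 52.4% over the table. A match describes the letters and is no evidence of binding.

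Blocking Notch1 and Notch2 was followed by higher levels of many of these enzymes, with the largest changes at Fut2 (3.67-fold), Fut1 (3.49-fold), Galnt12 (2.74-fold) and Gcnt3 (2.66-fold). Of the 36 enzymes, 15 rose and 0 fell in the N1N2 group against control (limma, adjusted p under 0.05 over all features), where 6.57% of all features rose and 5.15% fell. The median log2 change of the 36 was 0.54, against 0.0019 over all features, and 34 lay above 0. With arrays scaled to equal spread the median was 0.28, 26 lay above 0 and 10 rose, and with median centring the median was 0.35 and 10 rose. The 2 below 0, Galnt1 and St3gal6, had unadjusted p-values of 0.804 and 0.963 in limma's test. Of the 15, 7 rose at least 2-fold, as did 0.873% of all features. For 17 of the 36, every N1N2 array lay above every control array, which held for 6.14% of all features.

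With the Lrp6 antibody added, the enzymes moved the other way. Against the N1N2 group, 15 of the 36 fell and 0 rose, where 7.26% of all features fell and 9.44% rose. The median log2 change was -0.45, against -0.001 over all features, and 35 of the 36 lay below 0. With arrays scaled to equal spread the median was -0.19, 28 lay below 0 and 7 fell. St3gal6, the 1 above 0, had an unadjusted p of 0.352 in limma's test. Among the 15, Fut2, Fut1 and St6galnac6 fell at least 2-fold, as did 0.639% of all features. The groups did not overlap for 9 of the 36, which held for 4.02% of all features. Both comparisons use the same N1N2 arrays, so their opposite signs are not independent of each other. Between them, 11 enzymes rose and then fell (30.6% of 36, and 4.44% of all features): Galnt7, Galnt10, Galnt12, Gcnt3, Fut1, Fut2, Fut4, St3gal1, St6galnac4, St6galnac6 and Chst4.

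**Figure D1:**
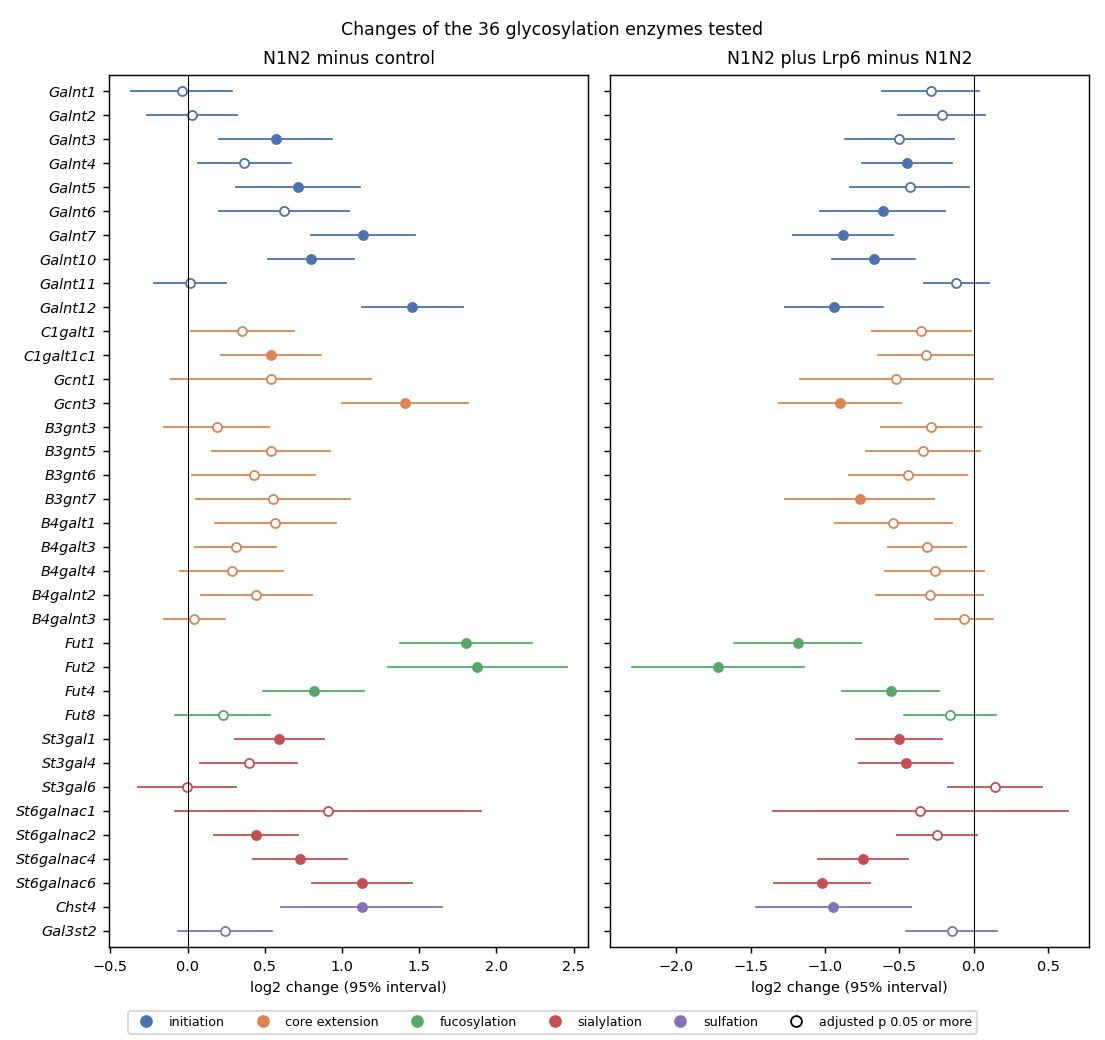
Log2 change of each of the 36 enzymes tested, grouped by role (colour), in the N1N2 group minus control (left) and in the N1N2 plus Lrp6 group minus N1N2 (right). Points are differences of means of 5 arrays, lines their 95% intervals and filled points have an adjusted p under 0.05; all 15 filled points lie above 0 on the left and all 15 below 0 on the right.

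Chain initiation was represented by 10 GALNT enzymes, of which 5 rose in the N1N2 group and 5 fell when the Lrp6 antibody was added. Galnt12, a transferase of digestive tissues, changed most. Its log2 ratios were 2.39, 2.72, 2.54, 2.84 and 2.69 on control replicates 1 to 5, 3.58, 4.27, 4.28, 4.28 and 4.04 on the N1N2 arrays and 3.32, 2.81, 3.56, 3.08 and 2.99 on the N1N2 plus Lrp6 arrays. All N1N2 values lay above all others, and the lowest N1N2 value nearly met the highest with the Lrp6 antibody. Galnt12 rose by 1.46 ± 0.15 (SE) on the log2 scale (adjusted p = 2.71e-05) and then fell by 0.94 (SE 0.15, adjusted p = 0.00133). A further Galnt12 probe gave changes of 1.68 and -1.05.

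Galnt7 and Galnt10 act mainly on peptides that already carry a GalNAc. For Galnt7 the values were 2.27, 2.25, 2.91, 2.50 and 2.30 in the control, 3.53, 3.58, 3.46, 3.69 and 3.63 in the N1N2 and 2.19, 2.97, 3.12, 2.61 and 2.62 in the N1N2 plus Lrp6 group. The N1N2 arrays were tightly grouped and did not overlap with either other group. The change was 1.14 ± 0.16 (SE, adjusted p = 0.000308) with the Notch antibodies, 2.2-fold, and -0.88 ± 0.16 (SE, adjusted p = 0.00234) on adding the Lrp6 antibody. Galnt10 had 2.37, 2.73, 2.89, 2.74 and 2.72 in the control, 3.28, 3.46, 3.58, 3.58 and 3.54 in the N1N2 and 2.36, 3.07, 3.09, 2.70 and 2.86 in the N1N2 plus Lrp6 group. Again the N1N2 values stood clear of both other groups. Galnt10 rose 1.74-fold (log2 change 0.80 ± 0.13 SE, adjusted p = 0.00129) and fell by 0.67 (SE 0.13, adjusted p = 0.00383).

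Galnt3 and Galnt5 rose only narrowly past the threshold, and Galnt4 and Galnt6 fell only narrowly past it. Galnt3 read 4.18, 4.56, 4.70, 4.62 and 4.60 on the control arrays, 4.81, 4.86, 5.68, 5.06 and 5.12 with the Notch antibodies and 4.21, 4.40, 5.00, 4.82 and 4.59 with the Lrp6 antibody added. Its N1N2 arrays lay above the control arrays, while the N1N2 plus Lrp6 arrays overlapped with both groups. Galnt3 rose by 0.57 ± 0.17 (SE, adjusted p = 0.0425), a call lost without any 1 of 8 arrays (control 1, 2, 4 or 5, N1N2 3, 4 or 5, or N1N2 plus Lrp6 5), where it was 0.43 to 0.59. The following change was -0.50 ± 0.17 (SE, adjusted p = 0.0588). Galnt5 read 0.64, 0.58, 1.22, 0.82 and 0.85 in the control, 1.24, 0.91, 1.95, 1.63 and 1.94 in the N1N2 and 0.93, 1.08, 1.33, 0.83 and 1.35 in the N1N2 plus Lrp6 group, and all 3 groups overlapped. It rose by 0.71 ± 0.19 (SE, adjusted p = 0.0241), a call lost without any 1 of 6 arrays (control 1, 2 or 5, or N1N2 3, 4 or 5), where it was 0.61 to 0.72. The second change of Galnt5 was -0.43 ± 0.19 (SE, adjusted p = 0.142).

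For Galnt4 the log2 ratios were 3.48, 3.58, 3.62, 3.66 and 3.51 in the control, 3.69, 3.92, 4.23, 3.92 and 3.93 in the N1N2 and 2.96, 3.36, 3.95, 3.55 and 3.62 in the N1N2 plus Lrp6 group. All N1N2 values exceeded all control values, but 0.37 ± 0.14 (SE) did not pass (adjusted p = 0.11). Galnt4 fell by 0.45 (SE 0.14, adjusted p = 0.0413) with the Lrp6 antibody, where the groups overlapped. That call was lost without any 1 of 10 arrays (control 2, 4 or 5, N1N2 2, 3, 4 or 5, or N1N2 plus Lrp6 1, 2 or 4), with changes from -0.47 to -0.32. Galnt6 had 4.42, 4.59, 4.98, 4.71 and 4.52 in the control, 5.51, 5.08, 5.32, 5.31 and 5.13 in the N1N2 and 3.82, 5.26, 4.77, 4.63 and 4.80 in the N1N2 plus Lrp6 group. N1N2 and control did not overlap, yet 0.62 ± 0.20 (SE) just missed the threshold (adjusted p = 0.0513). It fell by 0.61 (SE 0.20, adjusted p = 0.0442), with overlapping groups. The call was lost without any 1 of 12 arrays (all but control 1 and 3 and N1N2 plus Lrp6 2), with changes from -0.66 to -0.40. A further Galnt6 probe gave changes of 0.22 and -0.72. Of the remaining initiators, the broadly expressed Galnt1 and Galnt2 and also Galnt11 passed in neither comparison: Galnt1 had -0.039 and -0.29, Galnt2 0.026 and -0.21, and Galnt11, which lacked a value on 1 control array, 0.015 and -0.12.

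**Figure D2:**
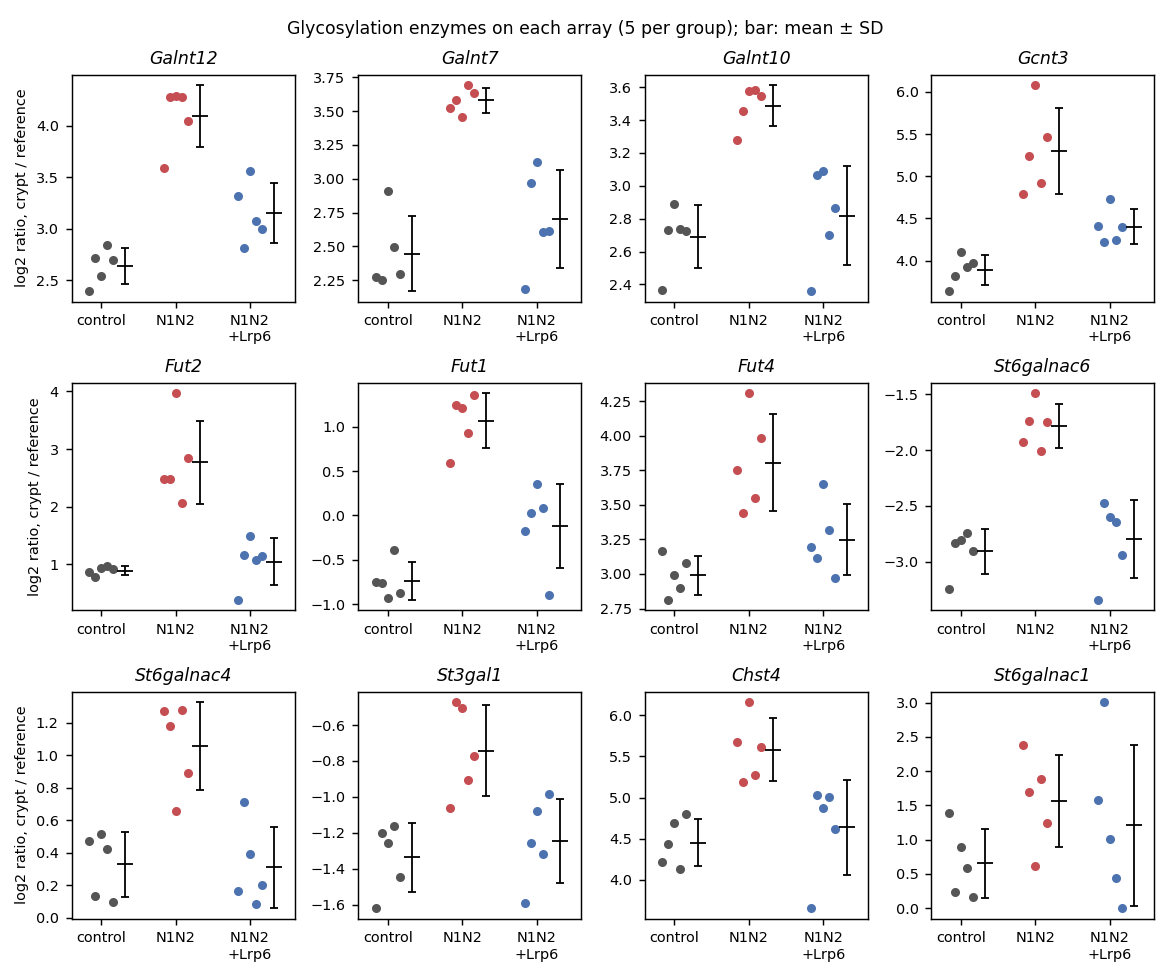
Log2 ratio of crypt over reference on each of the 5 arrays per group (points) with the group mean and SD (bar) for the 11 enzymes that passed in both comparisons and for St6galnac1. Scales differ between panels; N1N2 points lie above all control points in each panel except that of St6galnac1, where the 3 groups overlap.

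Of 13 tested genes of core synthesis and extension, 2 rose in the N1N2 group and 2 fell on adding the Lrp6 antibody, and all 13 had changes above 0 in the first comparison and below 0 in the second. Gcnt3, the mucin-type branching enzyme that makes core 2 and core 4 structures, led them. It read 3.64, 3.82, 4.10, 3.92 and 3.98 on the control arrays, 4.79, 5.24, 6.08, 4.92 and 5.47 on the N1N2 arrays and 4.41, 4.22, 4.73, 4.25 and 4.40 on the N1N2 plus Lrp6 arrays. N1N2 replicate 3 was the highest, every N1N2 value lay above both other groups, and every N1N2 plus Lrp6 value lay above the control values. Gcnt3 rose 2.66-fold (log2 change 1.41 ± 0.19 SE, adjusted p = 0.00028) and fell by 0.90 (SE 0.19, adjusted p = 0.00612).

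C1galt1c1, also called Cosmc, is the chaperone that C1galt1 needs to make core 1. It had 2.26, 2.12, 2.38, 1.80 and 2.07 in the control, 2.67, 2.50, 2.78, 2.58 and 2.83 in the N1N2 and 1.86, 2.24, 2.84, 2.56 and 2.25 in the N1N2 plus Lrp6 group. The N1N2 values exceeded the control values, and the third group overlapped with both. C1galt1c1 rose by 0.54 ± 0.15 (SE, adjusted p = 0.0315), a call lost without any 1 of 7 arrays (control 2, 4 or 5, or N1N2 1, 3, 4 or 5), where it was 0.46 to 0.57, and its second change was -0.32 ± 0.15 (SE, adjusted p = 0.175). C1galt1 itself changed by 0.36 (adjusted p = 0.165) and -0.35 (adjusted p = 0.15), past the threshold in neither.

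B3gnt7, a GlcNAc transferase of extended and keratan sulfate chains, read 1.53, 1.67, 1.83, 1.37 and 1.78 in the control, 1.79, 1.99, 3.16, 2.08 and 1.93 in the N1N2 and 0.79, 1.21, 1.74, 1.73 and 1.63 in the N1N2 plus Lrp6 group. Replicate 3 stood far above the other N1N2 arrays, and the N1N2 plus Lrp6 arrays lay below all N1N2 arrays. Its first change was 0.55 ± 0.24 (SE, adjusted p = 0.147), and it fell by 0.77 (SE 0.24, adjusted p = 0.0357) in the second. The fall was lost without any 1 of 5 arrays (N1N2 2, 3 or 4, or N1N2 plus Lrp6 1 or 2), with changes from -0.82 to -0.52. B3gnt6, the core 3 synthase, had 0.43 and -0.44 and passed in neither comparison. B4galt1, a main galactosyltransferase of lactosamine chains, had 0.57 (adjusted p = 0.0584, no overlap with control) and -0.54 (adjusted p = 0.0582). The other members that passed in neither, each with its 2 log2 changes in the same order, were Gcnt1 (0.54 and -0.52), B3gnt3 (0.19 and -0.29), B3gnt5 (0.54 and -0.34), B4galt3 (0.31 and -0.31), B4galt4 (0.29 and -0.26), B4galnt2, which makes the Sda antigen (0.44 and -0.30), and B4galnt3 (0.042 and -0.066).

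Among the fucosyltransferases, Fut1, Fut2 and Fut4 rose with the Notch antibodies and fell again with the Lrp6 antibody, and Fut8 passed in neither comparison. Fut2 had the largest change of all 36 enzymes in both comparisons. Its log2 ratios were 0.87, 0.78, 0.94, 0.97 and 0.92 on the control arrays, with a mean of 0.89 ± 0.074 (SD, n = 5). They were 2.48, 2.48, 3.97, 2.07 and 2.85 on the N1N2 arrays, with a mean of 2.77 ± 0.72 (SD, n = 5). With the Lrp6 antibody added they were 0.39, 1.17, 1.49, 1.07 and 1.14, with a mean of 1.05 ± 0.40 (SD, n = 5). The control arrays were nearly identical, all N1N2 arrays lay above both other groups with replicate 3 far the highest, and the control values lay inside the range of the N1N2 plus Lrp6 values. Fut2 rose 3.67-fold, a log2 change of 1.88 ± 0.27 (SE, adjusted p = 0.000461), and fell by 1.72 (SE 0.27, adjusted p = 0.00112), 3.29-fold. Leaving out any 1 of the 15 arrays kept both calls, with changes of 1.58 to 2.05 and of -1.89 to -1.42.

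Fut1 makes the same H-type linkage as Fut2. It had -0.75, -0.76, -0.93, -0.39 and -0.88 in the control, 0.59, 1.24, 1.20, 0.92 and 1.36 in the N1N2 and -0.18, 0.026, 0.36, 0.088 and -0.89 in the N1N2 plus Lrp6 group. The N1N2 arrays lay above both other groups, and 4 of the 5 N1N2 plus Lrp6 arrays lay above all control arrays while replicate 5 lay among them. Fut1 rose by 1.80 ± 0.20 (SE, adjusted p = 4.56e-05), 3.49-fold, and fell by 1.18 (SE 0.20, adjusted p = 0.00162), 2.27-fold. Its calls in both comparisons held under every alternative tried.

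Fut4, which adds fucose for Lewis x type structures, read 3.16, 2.81, 2.99, 2.90 and 3.08 in the control, 3.75, 3.44, 4.31, 3.55 and 3.98 in the N1N2 and 3.19, 3.11, 3.65, 3.31 and 2.97 in the N1N2 plus Lrp6 group. N1N2 and control were separate, and the third group overlapped with both. Fut4 rose by 0.82 ± 0.15 (SE, adjusted p = 0.00355) and fell by 0.56 (SE 0.15, adjusted p = 0.0215), the latter lost without N1N2 plus Lrp6 replicate 5 (-0.49, adjusted p = 0.0505). A dimmer Fut4 probe gave changes of -0.067 and -0.011, so the 2 probes disagree. Fut8, which adds the core fucose of N-glycans and no mucin-type cap, had 0.23 (adjusted p = 0.347) and -0.16 (adjusted p = 0.539).

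Sialylation was split: 4 of 7 sialyltransferases rose with the Notch antibodies and 4 fell on adding the Lrp6 antibody. St6galnac6, known for adding sialic acid to gangliosides and Lewis structures, changed most. It had -3.25, -2.83, -2.81, -2.74 and -2.91 in the control, -1.92, -1.74, -1.49, -2.01 and -1.75 in the N1N2 and -3.34, -2.47, -2.60, -2.64 and -2.94 in the N1N2 plus Lrp6 group. The N1N2 values stood clear of both other groups, which overlapped with each other. St6galnac6 rose by 1.13 ± 0.15 (SE, adjusted p = 0.000244), 2.19-fold, and fell by 1.02 (SE 0.15, adjusted p = 0.000816), 2.02-fold.

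St6galnac4, which adds the inner sialic acid of disialylated core 1, read 0.47, 0.13, 0.52, 0.43 and 0.10 in the control, 1.27, 1.18, 0.66, 1.28 and 0.89 in the N1N2 and 0.16, 0.71, 0.39, 0.085 and 0.20 in the N1N2 plus Lrp6 group. N1N2 replicate 3 was the lowest of its group here, and N1N2 plus Lrp6 replicate 2 reached above it. St6galnac4 rose by 0.73 ± 0.14 (SE, adjusted p = 0.00474) and fell by 0.75 (SE 0.14, adjusted p = 0.00356). Its dimmer probe gave changes of -0.055 and 0.048, unlike the brighter one. St3gal1 sialylates the galactose of core 1 and had -1.62, -1.20, -1.26, -1.16 and -1.45 in the control, -1.06, -0.47, -0.50, -0.91 and -0.77 in the N1N2 and -1.59, -1.26, -1.08, -1.32 and -0.99 in the N1N2 plus Lrp6 group. Control and N1N2 were separate, while N1N2 plus Lrp6 replicate 5 reached into the N1N2 range. St3gal1 rose by 0.59 ± 0.14 (SE, adjusted p = 0.0113) and fell by 0.50 (SE 0.14, adjusted p = 0.0195), the latter lost without N1N2 replicate 2 (-0.44, adjusted p = 0.057). A second St3gal1 probe gave 0.29 and -0.34 (unadjusted p = 0.194 and 0.125 in limma's test), smaller than the first. Of the 11 members with 2 tested probes, both had the same sign for 7 in the first comparison and for 9 in the second.

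St6galnac2, a sialyltransferase of O-linked GalNAc, had 4.45, 4.61, 4.42, 4.83 and 4.71 in the control, 4.92, 5.05, 5.00, 5.17 and 5.09 in the N1N2 and 4.33, 5.08, 5.05, 4.88 and 4.68 in the N1N2 plus Lrp6 group. N1N2 lay just above control and overlapped with the third group. It rose by 0.44 ± 0.13 (SE, adjusted p = 0.0347), a call lost without any 1 of 8 arrays (control 1, 2, 3 or 5, or N1N2 2, 3, 4 or 5), where it was 0.40 to 0.47. With the arrays scaled to equal spread the St6galnac2 change was -0.074 (adjusted p = 0.841), so its direction is not settled, and its second change was -0.24 ± 0.13 (SE, adjusted p = 0.223). St3gal4, which sialylates lactosamine ends, read 3.78, 3.61, 3.91, 3.80 and 3.65 in the control, 4.48, 4.06, 4.12, 4.27 and 3.79 in the N1N2 and 3.29, 4.20, 3.78, 3.61 and 3.57 in the N1N2 plus Lrp6 group. All 3 groups overlapped. Its first change was 0.39 ± 0.15 (SE, adjusted p = 0.0997), and it fell by 0.45 (SE 0.15, adjusted p = 0.0489), a call lost without any 1 of 13 arrays (all but N1N2 5 and N1N2 plus Lrp6 2), with changes from -0.47 to -0.35.

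St3gal6 and St6galnac1 passed in neither comparison. St3gal6 had -0.0070 and 0.14, the only change above 0 in the second comparison. St6galnac1, the sialyl-Tn synthase of goblet cells, ranged from 0.16 to 1.39 in the control, from 0.62 to 2.38 in the N1N2 and up to 3.01 in the N1N2 plus Lrp6 group, where its SD of 1.17 (n = 5) was the widest of the 36. Its changes of 0.91 ± 0.47 (SE, adjusted p = 0.232) and -0.36 ± 0.47 (SE, adjusted p = 0.69) had 95% intervals of -0.079 to 1.90 and -1.35 to 0.63, so these arrays leave large changes of either sign possible in the second comparison. A dimmer St6galnac1 probe gave changes of -0.035 and 0.060.

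Of the sulfotransferases, Chst4 rose and fell, and Gal3st2 passed in neither comparison. Chst4, which puts sulfate on GlcNAc of O-glycans, had 4.21, 4.44, 4.69, 4.13 and 4.79 in the control, 5.67, 5.19, 6.16, 5.27 and 5.61 in the N1N2 and 3.66, 5.03, 4.88, 5.00 and 4.62 in the N1N2 plus Lrp6 group. The N1N2 arrays lay above both other groups, and N1N2 plus Lrp6 replicate 1 was the lowest of all 15. Chst4 rose by 1.13 ± 0.25 (SE, adjusted p = 0.00863), 2.18-fold, and fell by 0.94 (SE 0.25, adjusted p = 0.0163). Gal3st2, which sulfates terminal galactose, had 0.24 (adjusted p = 0.314) and -0.15 (adjusted p = 0.573), and its dimmer probe -0.30 and -0.16.

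Against control, the crypts given all 3 antibodies showed 0 of 36 enzymes past the threshold, where 0.376% of all features passed in either direction. At an unadjusted p under 0.05, 4 of the 36 passed in limma's test (Fut1, Galnt12, Gcnt3 and Galnt1), and the fit with trended, robust variances also called 0. The median log2 change was 0.082, against 0.013 over all features, and 26 lay above 0. It was 0.38 with 35 above 0 when marked spots were kept (Fut2 0.53) and 0.36 with 31 above 0 with the mean of stromal and muscle markers as a covariate (Fut2 0.42), again with 0 past the threshold. Fut2 had 0.16 (95% interval -0.42 to 0.74, adjusted p = 0.846). The 3 largest below the threshold among members that had passed in both other comparisons were Fut1 at 0.62 (interval 0.19 to 1.04, adjusted p = 0.213), Galnt12 at 0.52 (0.19 to 0.84, adjusted p = 0.177) and Gcnt3 at 0.51 (0.10 to 0.92, adjusted p = 0.289). Gcnt3 was the 1 enzyme whose groups did not overlap, as for 1.51% of all features that were higher. With slide as a random block, 4 passed: Fut1 (0.74), Galnt12 (0.57) and Gcnt3 (0.56) above control and Galnt1 (-0.36) below it. In that fit 2915 of all 23939 features passed in this comparison, against 90 in the main fit. Without N1N2 plus Lrp6 replicate 5, Fut1 alone passed (0.81, adjusted p = 0.0265). A p that misses the threshold does not show that these enzymes were back at the control level.

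**Figure D3:**
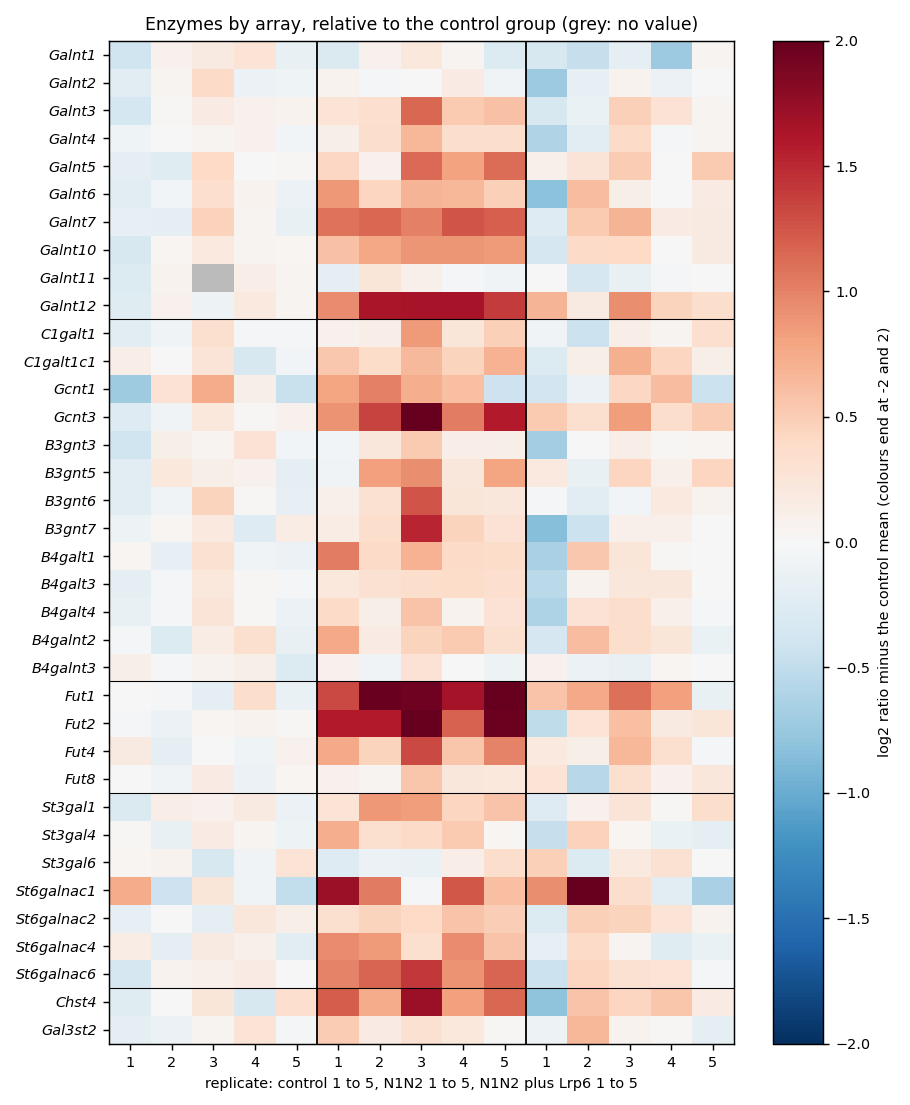
Log2 ratio minus the control mean for the 36 enzymes (rows, by role) on the 15 arrays (columns: control, N1N2, N1N2 plus Lrp6, replicates 1 to 5 each); red is higher and blue lower, and colours end at -2 and 2. The N1N2 block is mostly red, with replicate 3 the highest of its group for 18 of the 36, and N1N2 plus Lrp6 replicate 1 is the lowest of its group for 19.

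Single arrays contributed unequally. N1N2 replicate 3 was the highest of its group for 18 of the 36 enzymes and N1N2 replicate 1 the lowest for 17. In the N1N2 plus Lrp6 group, replicate 1 was the lowest for 19 and replicate 3 the highest for 15. The mean log2 ratio over the 36 ranged from 1.98 to 2.37 on the control arrays, from 2.64 to 2.96 on the N1N2 arrays and from 1.93 to 2.44 on the N1N2 plus Lrp6 arrays, so on this summed level every N1N2 array lay above every other. Leaving out 1 array at a time gave 11 to 19 enzymes that rose in the first comparison and 11 to 15 that fell in the second.

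Slide could be separated from group only for N1N2 against control, on the slide with 2 arrays of each. A fit with slide as a block draws this comparison from those 4 arrays. There, 32 of the 36 enzymes lay above 0 with a median of 0.40, and all 15 that had risen lay above 0. Fut1 alone passed (1.55, adjusted p = 0.0202). Fut2 was 1.54 (adjusted p = 0.0631), Galnt12 1.16 (adjusted p = 0.0978), Galnt7 1.16 (adjusted p = 0.133) and Gcnt3 1.07 (adjusted p = 0.10). Of the 15, 3 were at least as large there as over all arrays and the others were smaller, Galnt3 and Galnt5 at 0.22 and 0.24. In that fit 109 of all features passed, against 2806 over all arrays (11.7%). When loess was replaced by median centring, 573 features rose and 679 fell in this comparison, against 1573 and 1233, and 2634 rose and 780 fell in the second, against 2261 and 1738.

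**Figure D4:**
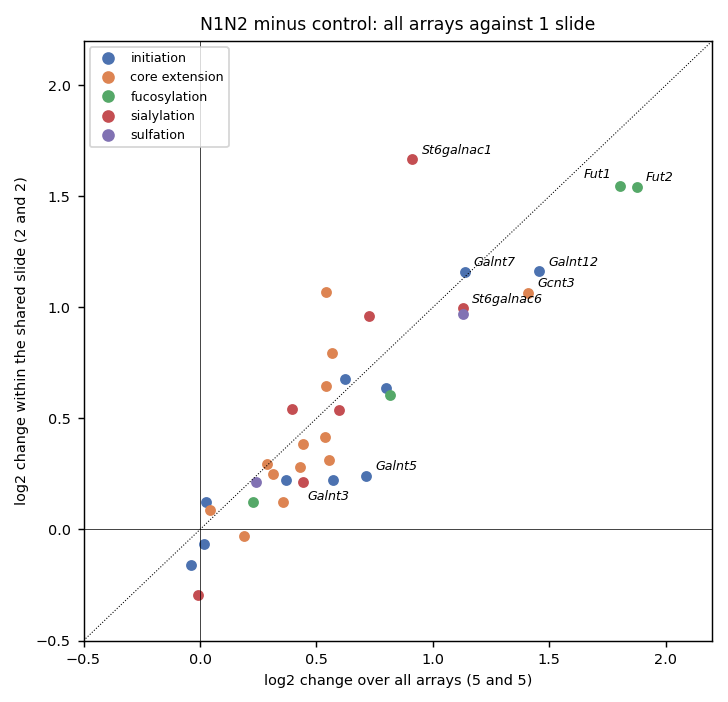
Log2 change of each of the 36 enzymes in the N1N2 group minus control over all arrays (horizontal axis, 5 and 5 arrays) against that within the slide that held both groups (vertical axis, 2 and 2 arrays); the dotted line marks equal values. Of the 15 that rose over all arrays, 3 lie on or above the line; Fut1 and Fut2, at 1.55 and 1.54 within the slide, and Galnt3 and Galnt5, at 0.22 and 0.24, lie below it.

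Related enzymes outside the set were counted in the same way. Of 39 other members of the same families, 26 were tested. With the Notch antibodies 4 rose and 0 fell, where 6.57% of all features rose and 5.15% fell. With the Lrp6 antibody added 1 fell, as did 7.26% of all features. Their median log2 changes were 0.041 and -0.16. The largest was B3galt5, which adds the galactose of type 1 chains. Its values were 3.86, 3.19, 3.68, 2.93 and 4.36 in the control, 5.44, 4.43, 5.56, 4.21 and 4.38 in the N1N2 and 2.29, 4.33, 3.34, 3.50 and 3.34 in the N1N2 plus Lrp6 group, and all 3 groups overlapped. B3galt5 rose by 1.20 ± 0.36 (SE, adjusted p = 0.0439) and fell by 1.45 (SE 0.36, adjusted p = 0.0137). The rise was lost without any 1 of 10 arrays (all but control 5, N1N2 4 and 5 and N1N2 plus Lrp6 1 and 2), where it was 1.01 to 1.29. St3gal3 rose by 0.67 and B4galt6 by 0.45. A4gnt, the remaining one of the 4, was well above background on 0 of 5 control, 4 of 5 N1N2 and 0 of 5 N1N2 plus Lrp6 arrays. It thus entered the test only through the group where it was high, and its change is not printed. It is still counted among the 4 and in the list medians, and is a point in the figure of changes by list.

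Transcripts for the supply of sugar donors mostly did not pass, but 24 of 33 tested lay above 0 in the N1N2 group and 9 below. Of these genes for sugar nucleotide synthesis and transport and for the sulfate donor, 7 rose and 1 fell in that group. Over all features, 6.57% rose and 5.15% fell. With the Lrp6 antibody 1 rose and 4 fell, where 9.44% of all features rose and 7.26% fell. The medians were 0.17 and -0.11. Slc35a2, the Golgi transporter of UDP-galactose, rose by 0.83 and fell by 0.75. Slc35c1, the main GDP-fucose transporter of the Golgi, rose by 0.49 (adjusted p = 0.0403) and fell by 0.68 (adjusted p = 0.00611). Its group means were 4.08 in the control, 4.58 in the N1N2 and 3.89 in the N1N2 plus Lrp6 group. Gfpt1 and Uap1, of the pathway to UDP-GlcNAc, rose by 0.49 and 0.52 and fell by 0.53 and 0.48. Papss2, which makes the sulfate donor, fell by 0.86 (adjusted p = 0.019) in the N1N2 group and had -0.15 (adjusted p = 0.728) after that. The gene that rose in the second comparison was Nanp, of sialic acid synthesis, by 0.48, named after its value was seen.

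Among N-glycan genes of the endoplasmic reticulum and Golgi, 3 of 20 were higher in the N1N2 group, where 6.57% of all features were. With the Lrp6 antibody 9 of 20 were lower, where 7.26% of all features were. The medians were 0.25 and -0.47. Rpn1 and Ddost, subunits of the oligosaccharyltransferase, rose by 0.75 and 0.73 and fell by 0.93 and 0.70. The rise of Rpn1 was lost without any 1 of control 1, 2 or 5 or N1N2 4, where it was 0.71 to 0.74. Uggt1, the folding sensor that reglucosylates glycoproteins, rose by 0.73 and fell by 0.93, and Ganab, the glucosidase that trims them, had 0.57 (adjusted p = 0.057) and then fell by 0.73. No difference between this list and the mucin-type set was tested.

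The mucin proteins that carry the chains did not pass: 0 of 7 tested genes did in either comparison (limma, adjusted p under 0.05), and at an unadjusted p under 0.05 only Muc4 did in each. Muc2, the secreted goblet cell mucin, had 0.41 (adjusted p = 0.286) and -0.25 (adjusted p = 0.547), Muc4 0.52 (adjusted p = 0.0694) and -0.49 (adjusted p = 0.0737), and Muc13 0.47 (adjusted p = 0.414) and -0.44 (adjusted p = 0.44).

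**Figure D5:**
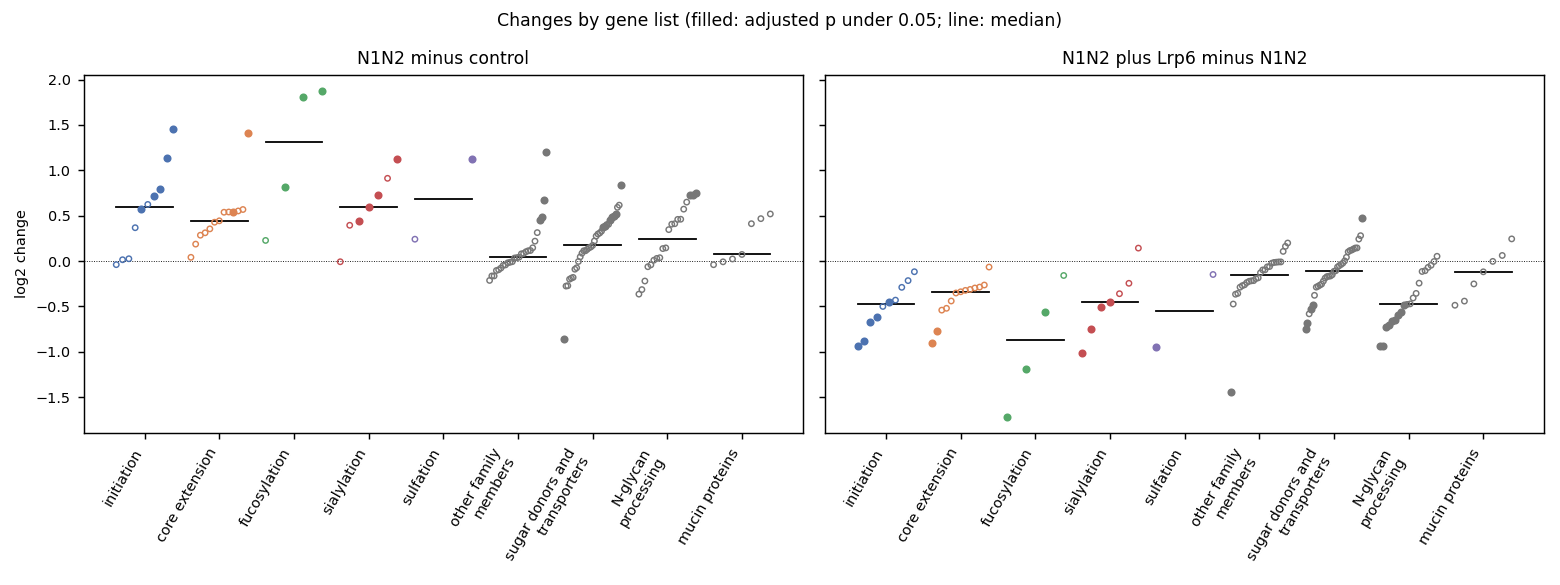
Log2 change of every tested gene by list in the N1N2 group minus control (left) and the N1N2 plus Lrp6 group minus N1N2 (right); filled points have an adjusted p under 0.05 and lines are list medians. The 4 fucosyltransferases have the largest medians (1.31 and -0.87), and none of the 7 mucin proteins is filled.

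Markers of other cell types moved between the groups as well. Of 14 goblet cell markers, all well above background, 7 rose and 0 fell in the N1N2 group and 0 rose and 6 fell with the Lrp6 antibody. Their mean log2 ratio was 4.34 to 4.55 on the control arrays, 5.07 to 5.61 on the N1N2 arrays and 4.51 to 5.19 on the N1N2 plus Lrp6 arrays. In the N1N2 plus Lrp6 group against control, 3 of the 14 rose (Spdef by 0.95, Creb3l4 by 0.95 and Creb3l1 by 0.74). Enteroendocrine markers had means of 3.74 to 4.16, 4.40 to 4.78 and 4.19 to 4.43 in the control, N1N2 and N1N2 plus Lrp6 groups, and 3 of 11 rose in the first and 1 fell in the second comparison. Immune markers had means of 1.87 to 2.24, 1.54 to 2.06 and 1.60 to 1.86, and 2 of 12 fell in the first comparison. Stromal and muscle markers, 13 tested, had means of -3.21 to -2.54, -3.37 to -3.00 and -4.09 to -3.44, and 2 fell in the first and 6 in the second comparison. Lung markers, which crypts should lack, had means of -0.37 to 0.087, -0.41 to -0.20 and 0.37 to 1.33, with 4 of 7 higher in the second comparison. Of these 4, Sftpa1 was well above background on all 5 N1N2 plus Lrp6 arrays and on 0 of the other 10, and so was tested only through the group where it was high. All 7 lay above 0 in the second comparison, with a median of 0.43. Sftpc had means of 1.20 in the control, 0.098 in the N1N2 and 5.44 in the N1N2 plus Lrp6 group. Of 11 enterocyte markers, 10 lay above 0 in the first comparison (median 0.19) and 11 below 0 in the second (-0.27), where 1 fell. The 5 tested Paneth markers all lay above 0 and then below 0 (medians 0.28 and -0.43). So did the 2 distal intestine markers (0.64 and -0.61), and none of these 2 lists passed. Tuft and pancreas markers were evenly split by sign in each comparison. Of 5 markers of the proximal intestine, 2 fell in the N1N2 group, Cybrd1 by 1.29 and Slc40a1 by 1.27. The other 3 did not pass. Their control and N1N2 means were 4.74 and 5.21 (Creb3l3), 2.12 and 1.99 (Gata4) and 2.73 and 2.54 (Onecut2). In the second comparison 1 of the 5 rose, Gata4, to a mean of 2.25. The part of these shifts in the enzymes' changes was not tested, apart from a fit with the stromal and muscle mean as a covariate. In the second comparison of that fit, the 4 enzymes still past the threshold were Fut1 (-1.33), Fut2 (-1.56), Galnt12 (-0.98) and St6galnac6 (-0.77). Of the 36, 33 still lay below 0, with a median of -0.27 against -0.45, and 349 of all features passed, against 3999. Stromal and muscle means did not overlap between the N1N2 and N1N2 plus Lrp6 arrays, so this fit cannot cleanly separate them from group. In the first comparison of that fit 21 enzymes rose, against 15, with a median of 0.69 against 0.54.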

How the data were processed

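Expression was measured on 15 Agilent arrays of 2 colours, 5 per group, with crypt RNA in red (Cy5), reference RNA in green (Cy3) and no dye swap. Per the file headers, spots were read with Feature Extraction 11.0.1.1 on a design for mouse build mm9, and the deposited scanner files give raw median intensity and local background intensity for each channel. Their log10 ratio of red over green, made by the authors' scanner software per the file headers, was not used. A further table that the authors deposited holds log2 values, for which the submitters' processing notes name R 3.0.0 and limma 3.6.7. Its columns matched the values computed here on every array (r of at least 0.99998, slopes 0.999 to 1.003, medians 0.0144 to 0.0286), so its scale is log2 and its direction crypt over reference.

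In R 4.3.3 with limma 3.58.1, spots marked by the scanner as non-uniform or as population outliers (306 to 642 of 44397 per array) were left out, background was corrected by normexp (offset 50) on medians, since the files hold no means, and ratios were normalized by loess, with control spots at weight 0. No spot was saturated in red, and saturation in green was not counted. Probes were kept (28488 of 39429) where at least 4 of the 5 arrays of some group had a red signal well above background, and the probe brightest in red stood for its gene. Probes were named by matching the files' accessions to a RefSeq table. The 3 groups were compared in 1 limma fit (lmFit, eBayes), with p-values adjusted by Benjamini-Hochberg over 23939 features at 0.05. A change is a difference of mean log2 ratios, given with the SE of the fit. The number of arrays limits the precision. The p-values set a change against the spread between arrays within the 3 groups, and whether that is a spread between animals is not known. The script was tested on simulated data.

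The members, the lists and the tests were chosen with earlier results of these data known. Values on all arrays are printed for members that passed in either of the first comparisons, other members by their changes, and from each pathway list at most 4 genes with the largest changes that passed per comparison. Replicates were not paired: deviations of arrays with the same number, over 15 pairs, correlated at -0.44 to 0.63. The alternatives tried were other background, normalization, filter, probe, spot and test choices, the deposited table, slide or replicate number as a block, a stromal covariate and leaving out each array.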

Additional observations from a re-analysis of the deposited data

Results flagged for a closer look

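In 7 of 107 groups of 5 arrays (6.54%, where chance marks about 1 in 20), 1 array lay far from the others. N1N2 plus Lrp6 replicate 1, the array with the fewest spots well above background, was the lowest of its group for Galnt2 (0.10), B3gnt3 (3.46) and B4galt3 (0.92). N1N2 replicate 3, alone on its slide, was the highest for B3gnt6 (2.66) and B3gnt7 (3.16). Control replicate 1 was the lowest for Galnt3 (4.18), and N1N2 plus Lrp6 replicate 2 the lowest for Fut8 (1.00). Of these genes, Galnt3 and B3gnt7 are the ones with a call. The rise of Galnt3 was 0.48 without control replicate 1, and the fall of B3gnt7 was -0.52 without N1N2 replicate 3, neither past the threshold.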

How the results depend on the processing

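Of the calls made in the members, those of Fut1 in both comparisons and of St6galnac6 in the second held under all 29 alternatives tried. The number that rose in the N1N2 group was 15, against 23 with marked spots kept, 21 with the stromal and muscle covariate, 21 with only the compared groups fitted, 10 with median centring, 10 with arrays scaled to each other and 1 with slide as a fixed block, where Fut2 was 1.54 (adjusted p = 0.0631). Over all 23939 features, 1573 rose, against 1729, 1898, 2109, 573, 1294 and 78 in the same order. The number that fell with the Lrp6 antibody was 15, against 9 with median centring, 7 with arrays scaled to each other, 8 with marked spots kept, 10 with only the compared groups fitted and 4 with the stromal and muscle covariate (33 of 36 below 0). Features that passed in either direction numbered 3999, against 3414, 3457, 2335, 2945 and 349 in the same order. An alternative chosen after seeing the data kept only replicate 5 of the N1N2 plus Lrp6 group: 2 fell (Fut1 and St6galnac6) and Fut2 was -1.63 (adjusted p = 0.128), with the lone array assumed to vary like the others. For N1N2 plus Lrp6 against control the number was 0, but 4 with slide as a random block, whose fitted correlation within slides was -0.18. With that block 2915 of all features passed in this comparison, against 90. Leaving out 1 array gave 11 to 19, 11 to 15 and 0 to 1 calls in the 3 comparisons, the 1 being Fut1 without N1N2 plus Lrp6 replicate 5. St6galnac2 reversed to -0.074 (adjusted p = 0.841) with arrays scaled. Beyond it, signs differed 36, 16 and 102 times where neither value passed. The cause of these differences was not tested.

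The replicate number as a block gave 16, 17 and 0 calls, with Fut2 at 1.88 (adjusted p = 0.000674) and -1.72 (adjusted p = 0.00183). Slide as a fixed block could not be fitted for the N1N2 plus Lrp6 group, which shares no slide. Fut2 and B4galnt3 drop out where all 15 arrays must be well above background. Signal near background limits both in the N1N2 plus Lrp6 group.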
